A study of Mus musculus with 24 samples.

Results

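Acnat1, Acnat2, Acot1, Acot2, Acot3 and Acot4 are 6 of the 56941 genes in the table, taken by their symbols from the authors' gene annotation, and each symbol named a single Ensembl gene. They belong to a family of related enzymes that act on acyl-CoA thioesters. Acnat2 was chosen by its measured differences between genotypes, higher in global and lower in liver-specific Bmal1 knockouts in earlier results of these data. Those differences are therefore described here without a test, and the other members were taken as its relatives. All 6 members passed the filter on low counts, which left 20514 genes.

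Polyadenylated RNA of mouse liver was sequenced in 24 libraries, 3 for each of 8 groups. Wild-type mice (WT, Bmal1+/+) and global knockouts (KO, Bmal1-/-) came from Bmal1+/- parents on a C57BL/6J background. Mice with floxed alleles and no Cre (F, Bmal1f/f) were the controls of liver-specific knockouts (LKO, Alb-Cre; Bmal1f/f), in which Albumin-Cre deletes Bmal1 chiefly in hepatocytes, so other liver cells keep the gene. The sampling times were CT2 and CT14, circadian times that fall early in the day and early in the night of an intact clock. In KO, which lacks BMAL1, they name the sampling time and not the phase of a running clock. F carries no Cre, so LKO differs from F by the transgene as well as by the deletion. The labels used here give no age, and they do not say whether the 3 libraries of a group came from separate animals; p-values then measure only the spread between these samples.

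BMAL1 pairs with CLOCK and activates genes through E-box elements, and its loss stops the molecular clock. The type I acyl-CoA thioesterases split acyl-CoA into a free fatty acid and coenzyme A. ACOT1 does so in the cytosol, ACOT2 in mitochondria and ACOT3 and ACOT4 in peroxisomes, where ACOT4 acts on succinyl-CoA and other dicarboxylic acyl-CoAs. ACNAT1 conjugates fatty acids to taurine in peroxisomes, ACNAT2 is its closest relative, and BAAT conjugates bile acids to taurine or glycine. Several of the thioesterase genes are classic targets of PPAR alpha, the nuclear receptor that drives fatty acid oxidation in fasting.

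The members lie in 2 clusters. On chromosome 4 of the mouse reference the order was Acnat2, Acnat1 and Baat, and on chromosome 12 it was Acot2, Acot1, Acot4, Acot3, Acot5 and Acot6. The longest open reading frames of Acnat1 and Acnat2 were 95.2% identical, and 16.6% of the 100-base windows of Acnat1 transcripts occurred unchanged in Acnat2. Acot1 and Acot2 were 85.6% identical over the alignment, and 16.5% of the 100-base windows of Acot1 occurred in Acot2. Acot3 and Acot4 were 72.6% identical, with 0.63% of such windows of Acot3 found in Acot4. Reads from the shared stretches cannot be traced in the tables, so the split of a signal within the Acnat1 and Acnat2 pair and within the Acot1 and Acot2 pair is uncertain.

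The 250 bases before the start sites of 4 members are shown because these are the genes with the clearest differences by genotype or time, and Acnat1 stands beside its near copy. They are RefSeq sequences on build GRCm38.p6, printed 5′ to 3′ on the strand of the gene. Acnat2 and Acot3 have 2 annotated starts each, and only the window of the first is shown. The second windows are chr4:49405759-49406008 for Acnat2 and chr12:84051901-84052150 for Acot3. Capitals mark the motif matches described after the sequences.
Acot4 (chr12:84038129-84038378, plus strand): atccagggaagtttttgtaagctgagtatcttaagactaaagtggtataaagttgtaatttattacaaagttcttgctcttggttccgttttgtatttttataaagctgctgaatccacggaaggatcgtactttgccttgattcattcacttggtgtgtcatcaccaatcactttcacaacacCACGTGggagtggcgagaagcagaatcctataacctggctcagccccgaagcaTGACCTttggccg
Acot3 (chr12:84051894-84052143, plus strand): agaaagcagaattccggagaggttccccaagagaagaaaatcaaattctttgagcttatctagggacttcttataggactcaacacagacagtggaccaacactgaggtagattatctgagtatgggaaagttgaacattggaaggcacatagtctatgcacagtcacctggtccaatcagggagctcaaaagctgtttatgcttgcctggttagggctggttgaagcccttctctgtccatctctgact
Acnat2 (chr4:49408152-49408401, minus strand): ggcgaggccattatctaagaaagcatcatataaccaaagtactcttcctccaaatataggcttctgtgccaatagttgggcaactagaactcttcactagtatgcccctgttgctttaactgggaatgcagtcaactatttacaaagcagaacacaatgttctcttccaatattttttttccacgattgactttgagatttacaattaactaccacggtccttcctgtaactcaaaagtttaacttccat
Acnat1 (chr4:49451110-49451359, minus strand): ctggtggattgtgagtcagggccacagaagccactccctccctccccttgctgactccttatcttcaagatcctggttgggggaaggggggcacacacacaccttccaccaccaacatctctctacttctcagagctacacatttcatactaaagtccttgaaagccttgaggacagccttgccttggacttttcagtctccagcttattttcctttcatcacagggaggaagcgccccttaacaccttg

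Matches were sought on both strands for the E-box CACGTG, the related CACGTT, the D-boxes TTATGTAA and TTATGCAA, and AGGTCA, the hexamer of nuclear receptors such as PPAR alpha. Among the upstream windows of the 6 members, Acot4 alone held any. It had CACGTG at 66 to 61 bases before the start, a hexamer found in 6.02% of 32851 such windows. It also had AGGTCA on the opposite strand, read as TGACCT, at 13 to 8 bases before the start, which 14% of the windows held. Binding was not measured here, and no match says only that these letters are not in this window.

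Total counts ran from 88995259 to 131544733 per library. Bmal1 itself, the check of the deletion, stood at 16.6, 18.8 and 19.3 TPM in WT and at 4.29, 4.69 and 5.08 TPM in KO at CT2. The log2 difference was -2.11 ± 0.36 (SE), with an adjusted p of 0.00576. It stood at 16.6, 15.6 and 15.2 TPM in F and at 4.9, 5.59 and 3.73 TPM in LKO at CT2 (-1.95 ± 0.36, adjusted p = 0.0112). Without the 3 libraries low in the Y-linked gene Ddx3y in earlier results of these data (at CT2, replicate 3 of F, replicate 3 of LKO and replicate 1 of KO), the differences were -2.11 (adjusted p = 0.0684) and -1.91 (adjusted p = 0.0984). The LKO call was also lost without LKO CT2 replicate 1 or 2 (0.064 and 0.06) and with only the groups compared (0.0774). At CT14 the controls were low too and the groups overlapped. Summed hepatocyte markers (9 genes) ran from 86600 to 140000 CPM in control libraries and from 58700 to 95400 CPM in knockout libraries, and none of the 9 was at 0 in any library. Alb alone had a median of 58600 CPM (29100 to 110000), so it weighs heavily in this sum. Endothelial markers summed to 222 to 357 CPM in controls and 239 to 325 CPM in knockouts. Kupffer cell markers (412 to 1330 and 460 to 892 CPM) and stellate cell markers (124 to 270 and 131 to 254 CPM) overlapped too. The 6 kidney tubule markers summed to at most 0.146 CPM. Of 11 pancreatic markers 10 were found, and they summed to 2340 CPM in F CT2 replicate 3 and 655 CPM in F CT14 replicate 3, against 24.1 to 75.8 CPM in the other F libraries and at most 64 CPM in WT, 102 CPM in KO and 81.2 CPM in LKO. The 10 spermatid markers ran from 6.6 to 29.7 CPM in F and from 8.8 to 19.4 CPM in LKO, against at most 0.815 CPM in WT. In KO they summed to 6.98 CPM in CT2 replicate 2 and 7.81 CPM in CT14 replicate 1, and to at most 0.879 CPM in the other libraries. KO CT14 replicate 3 held 2300 CPM over the 9 interferon-stimulated genes, and no other library more than 285 CPM. Fits without the libraries high in pancreatic or interferon-stimulated transcripts or low in Ddx3y are given for several of the calls that they ended. The edgeR fit without the 2 KO libraries high in spermatid transcripts ended the calls of Acot4 between F and WT (adjusted p = 0.0525) and of Pdk4 in LKO (0.0568). The part of the hepatocyte markers, and of the spermatid markers between F and WT, was not tested. In whole liver, fewer cells of a type and less RNA per cell cannot be told apart.

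Acnat2 was chosen for its opposite differences in the 2 knockouts, so its place among the members in this respect is not a result. In TPM, a level corrected for transcript length and scaled to one total per library, its level in WT was 57.5, 70.5 and 69.9 at CT2 and 35.3, 10.1 and 28.6 at CT14. Its KO levels were 123, 190 and 198 at CT2 and 174, 238 and 213 at CT14. All 6 KO libraries lay above all 6 WT libraries, a separation that 2.72% of all tested genes showed in CPM in either direction. The fitted log2 fold change of KO over WT was 1.20 ± 0.45 (SE) at CT2, 2.88 ± 0.48 at CT14 and 2.04 ± 0.33 as the mean of both times, a 4.12-fold difference.

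In F, Acnat2 stood at 48.8, 67.7 and 79.1 TPM at CT2 and at 20.5, 120 and 124 TPM at CT14. In LKO it stood at 18, 35.5 and 22.2 TPM at CT2 and at 48.6, 67.1 and 37.5 TPM at CT14. LKO lay below F in every library at CT2, as 10.6% of all genes were apart there, and at CT14 the groups overlapped because F replicate 1 was below all 3 LKO libraries. The log2 fold change of LKO over F was -1.56 ± 0.45 at CT2, -0.99 ± 0.45 at CT14 and -1.27 ± 0.32 as the mean of both times. Without F CT14 replicate 1 the CT14 value was -1.44 ± 0.34. The KO effect exceeded the LKO effect by 3.31 ± 0.45 on the log2 scale. KO and LKO share the loss of hepatocyte BMAL1, and Acnat2 was lower in LKO than in KO by a log2 difference of -2.41 ± 0.33, with no overlap between the 6 libraries of each, as for 2.37% of all genes. F exceeded WT by 0.90 ± 0.32, with overlap. Ordered by mean TPM, the groups were KO CT14 (208), KO CT2 (170), F CT14 (88.3), WT CT2 (65.9), F CT2 (65.2), LKO CT14 (51), LKO CT2 (25.2) and WT CT14 (24.7). Among neighbours in this order, only LKO CT14 and LKO CT2 did not overlap.

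**Figure D1:**
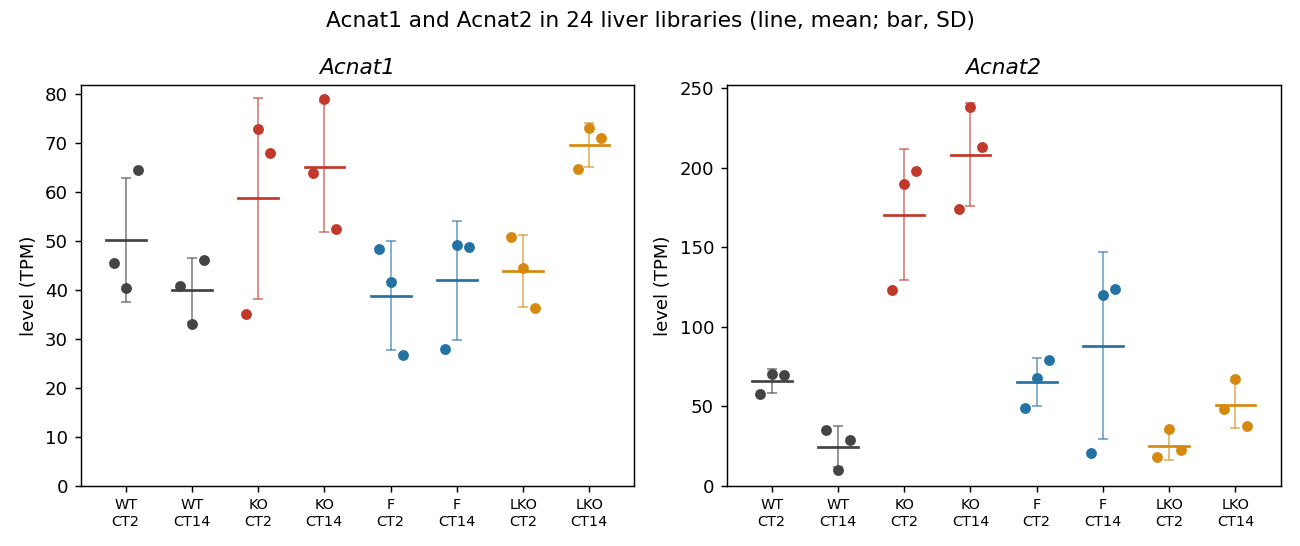
Levels of Acnat1 and Acnat2 in TPM (y axis) in the 3 libraries (points) of each of 8 groups (x axis), with the mean (line) and SD (bar). Acnat2 lies between 123 and 238 TPM in KO and between 18 and 67.1 TPM in LKO, while Acnat1 overlaps between most groups.

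Time was not used to choose Acnat2, so its CT14 to CT2 difference was tested. In WT the 3 CT14 libraries lay below the 3 CT2 libraries (21% of all genes were apart in WT), a log2 difference of -1.36 ± 0.45 that missed the threshold in edgeR (adjusted p = 0.145). The DESeq2 fit gave an adjusted p of 0.0406, the edgeR fit without F CT14 replicate 1 gave 0.0228, and the authors' deposited table lists 0.00115. In LKO the 3 CT14 libraries lay above the 3 CT2 libraries, by 0.97 ± 0.45 (adjusted p = 0.394), a separation that 20.7% of all genes showed, and the authors' deposited table lists 0.0313 for this comparison. The differences in F (0.40 ± 0.44, adjusted p = 0.759) and KO (0.31 ± 0.44, adjusted p = 1) were within their error. The time effect of KO exceeded that of WT by 1.68 ± 0.63 (adjusted p = 0.338), and that of LKO exceeded that of F by 0.57 ± 0.63 (adjusted p = 1). Each is also the knockout effect at CT14 less that at CT2, so for Acnat2 it is built from differences left untested above. None of the 6 members passed for either difference, against 0.799% of all genes for KO and WT and 0.112% for LKO and F.

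A pair of libraries stood low within their groups. WT CT14 replicate 2 had 10.1 TPM of Acnat2 and 1.5 TPM of Acot3, and F CT14 replicate 1 had 20.5 and 4.33 TPM. Each was the lowest of its group for both genes and for Acot4, at 11 and 15.3 TPM. Bmal1 was also lowest of the group in each, at 1.41 and 1.56 TPM. Their part in the results was not tested, beyond the values without them given here.

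Acnat1 passed no test in either knockout, and its means at CT14 were above those of the controls in both. It stood at 45.6, 40.5 and 64.5 TPM in WT CT2, 40.8, 33.1 and 46.2 in WT CT14, 35.2, 73 and 68.1 in KO CT2 and 63.9, 79 and 52.5 in KO CT14. Its levels were 48.4, 41.6 and 26.7 TPM in F CT2, 27.9, 49.2 and 48.9 in F CT14, 50.9, 44.6 and 36.3 in LKO CT2 and 64.7, 73.2 and 71.2 in LKO CT14. The mean log2 difference was 0.26 ± 0.16 for KO over WT (adjusted p = 0.456) and 0.21 ± 0.16 for LKO over F (adjusted p = 0.727). At CT14 alone it was 0.48 ± 0.23 in each, with an adjusted p of 0.302 in KO and 0.469 in LKO. The CT14 libraries of LKO lay above those of F, as 23.6% of all genes were apart, and those of KO lay above those of WT in TPM but overlapped in CPM. None of its 15 contrasts passed the threshold, the smallest adjusted p being 0.228. That was the CT14 to CT2 difference in LKO, 0.64 ± 0.23, with no overlap between the times, as for 20.7% of all genes, and the authors' deposited table lists 0.0453 for it. In WT the difference was -0.25 ± 0.23 (adjusted p = 0.817).

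The balance of the 2 Acnat transcripts moved with Acnat2. Acnat2 made up 57.1% ± 5.86 (SD, n = 3) of the summed Acnat TPM in WT CT2 and 36% ± 11.7 in WT CT14. In KO it made up 74.8% ± 2.82 at CT2 and 76.1% ± 3.66 at CT14. F had 62.3% ± 12.3 and 61.7% ± 16.7, and LKO had 36.1% ± 9.24 and 41.7% ± 6.73, at CT2 and CT14. Acnat2 was thus the more abundant of the pair in all KO libraries and the less abundant in all LKO libraries. Baat, their neighbour, stood between 132 and 248 TPM over all libraries, and its mean exceeded those of Acnat1 and Acnat2 in each of the 8 groups. It passed the threshold in none of 15 contrasts (smallest adjusted p = 0.581).

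Acot1, the cytosolic enzyme, had the highest mean TPM of the 4 thioesterases in each of the 8 groups, with a wide spread between replicates. In WT it stood at 9.07, 59 and 37.5 TPM at CT2 and at 22.8, 22.5 and 55.9 TPM at CT14. The KO libraries held 10.4, 13.6 and 6.56 TPM at CT2 and 21.9, 8.9 and 3.13 TPM at CT14. The groups overlapped at CT2 and did not at CT14, where 25.9% of all genes were apart. Over both times Acot1 fell by 1.82 ± 0.50 on the log2 scale in KO (adjusted p = 0.0379, edgeR). The difference was -1.91 ± 0.70 at CT2 (adjusted p = 0.391) and -1.74 ± 0.70 at CT14 (adjusted p = 0.189). The call over both times was lost without any 1 of 13 of the 24 libraries, at adjusted p of 0.051 to 0.103. Those were replicates 2 and 3 of WT CT2, WT CT14 and KO CT14, all of KO CT2, replicates 1 and 3 of F CT2, and replicate 2 of F CT14 and LKO CT14. With the replicate number as a block the difference was -1.73 (adjusted p = 0.0826). Without KO CT14 replicate 3, the library lowest in Acot1 and highest in interferon-stimulated genes, it was -1.6 (adjusted p = 0.0717).

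In F, Acot1 stood at 13.6, 9.37 and 17 TPM at CT2 and at 26.5, 32.3 and 21 TPM at CT14. In LKO it stood at 8.62, 8.85 and 26 TPM at CT2 and at 15.4, 15.3 and 34.3 TPM at CT14. The groups overlapped at both times, and the mean difference was -0.27 ± 0.48 (adjusted p = 0.944). The difference between the KO and LKO effects, -1.55 ± 0.69, did not pass the threshold (adjusted p = 0.566). F differed from WT by -0.87 ± 0.49 (adjusted p = 0.472), and CT14 from CT2 in F by 1.03 ± 0.69 (adjusted p = 0.53). For that time difference in F the authors' deposited DESeq2 table lists an adjusted p of 0.0479. The F libraries of Acot1 did not overlap between the times, as for 19.2% of all genes.

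Acot2, the mitochondrial enzyme, was present at lower levels. It stood at 2.16, 7.34 and 4.87 TPM in WT CT2, 3.21, 3.85 and 6.46 in WT CT14, 3.3, 3.38 and 1.97 in KO CT2 and 4.41, 2.03 and 1.74 in KO CT14. In F it stood at 1.27, 2.27 and 2.28 TPM at CT2 and 2.15, 4.77 and 3.3 at CT14, and in LKO at 2.05, 2.82 and 3.64 and at 2.29, 2.71 and 4.46. Every pair of groups compared overlapped. The KO difference was -0.88 ± 0.32 (adjusted p = 0.131), the LKO difference 0.02 ± 0.32 (adjusted p = 1), the F to WT difference -0.86 ± 0.32 (adjusted p = 0.194) and the time difference in F 0.80 ± 0.46 (adjusted p = 0.429). Acot2 passed the threshold in none of 15 contrasts.

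**Figure D2:**
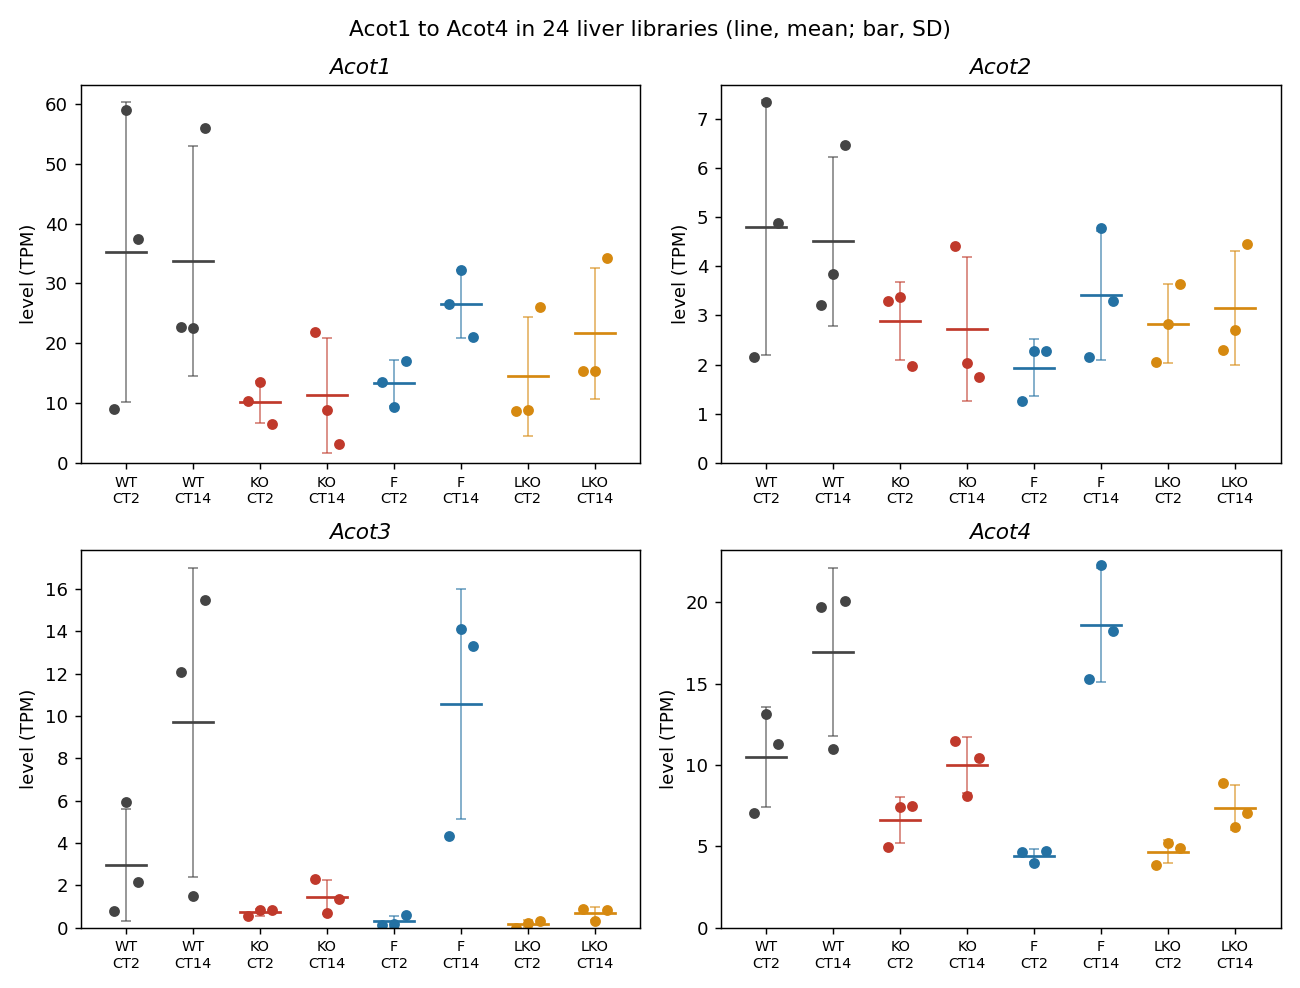
Levels of Acot1, Acot2, Acot3 and Acot4 in TPM (y axis, starting at 0, with a scale for each gene) in the 3 libraries (points) of each of 8 groups (x axis), with the mean (line) and SD (bar, cut at 0). Acot3 and Acot4 are highest in the F and WT groups at CT14, with means of 10.6 and 9.69 TPM for Acot3 and 18.6 and 16.9 TPM for Acot4.

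Acot4, a peroxisomal enzyme, gave the most stable differences of the thioesterases. In WT it stood at 7.08, 13.1 and 11.3 TPM at CT2 and at 19.7, 11 and 20.1 TPM at CT14. The KO libraries held 4.97, 7.39 and 7.48 TPM at CT2 and 11.5, 8.1 and 10.4 TPM at CT14. The lowest WT library overlapped the KO libraries in TPM at each time. In CPM, counts normalized to library size, the groups were apart at each time. So were 14% of all genes at CT2 and 25.9% at CT14. Over both times Acot4 fell by 0.89 ± 0.16 on the log2 scale in KO (adjusted p = 0.00119). It fell by 0.93 ± 0.22 at CT14 (adjusted p = 0.0133). At CT2 the difference was -0.85 ± 0.22 (adjusted p = 0.108, and 0.0241 with DESeq2), and the authors' deposited table lists 0.0339. The CT14 call was lost without KO CT14 replicate 2, WT CT14 replicate 1 or WT CT14 replicate 3, at adjusted p of 0.0576 to 0.082.

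In F, Acot4 stood at 4.64, 3.98 and 4.69 TPM at CT2 and at 15.3, 22.3 and 18.2 TPM at CT14. In LKO it stood at 3.86, 5.2 and 4.93 TPM at CT2 and at 8.89, 6.17 and 7.05 TPM at CT14. The 2 groups overlapped at CT2, and at CT14 every LKO library lay below every F library, where 23.6% of all genes were apart. LKO differed from F by -0.07 ± 0.22 at CT2 (adjusted p = 0.999), and at CT14 Acot4 fell by 1.54 ± 0.22, a 2.92-fold difference (adjusted p = 0.000386). The mean over both times fell by 0.80 ± 0.16 (adjusted p = 0.00441), whereas the authors' deposited table lists -1.11 with an adjusted p of 0.132 for LKO and F over both times. LKO differed from KO by -0.50 ± 0.15 (adjusted p = 0.101).

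Acot3, the other peroxisomal enzyme, ran with Acot4 at lower levels. In WT it stood at 0.806, 5.93 and 2.17 TPM at CT2 and at 12.1, 1.5 and 15.5 TPM at CT14, and in KO at 0.538, 0.836 and 0.822 and at 2.29, 0.715 and 1.37 TPM. In F it stood at 0.139, 0.172 and 0.598 TPM at CT2 and at 4.33, 14.1 and 13.3 TPM at CT14. In LKO it stood at 0, 0.239 and 0.328 TPM at CT2 and at 0.886, 0.313 and 0.835 TPM at CT14. LKO and F were apart at CT14, as 23.6% of all genes were, and overlapped at CT2. WT and KO overlapped at each time in TPM, whereas in CPM they were apart at CT2, as for 14% of all genes. The KO difference was -2.21 ± 0.67 (adjusted p = 0.064, and 0.0231 with DESeq2), from -1.81 ± 0.94 at CT2 (adjusted p = 0.618) and -2.61 ± 0.96 at CT14 (adjusted p = 0.143). The LKO difference was -2.42 ± 0.70 (adjusted p = 0.0719, and 0.0169 with DESeq2). At CT14 alone it was -3.84 ± 1.02 (adjusted p = 0.0668), and 6 of 13 alternative settings called it, with adjusted p of 0.00516 to 0.0495. These values missed the threshold in the edgeR fit over all libraries. The authors' deposited DESeq2 table lists adjusted p of 0.00616 for KO over both times, 0.0056 at CT2 and 0.0411 at CT14. For LKO it lists 0.0806 over both times and 9.62e-07 at CT14.

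The 4 thioesterases together held 53.5 ± 33.2 TPM (SD, n = 3) in WT CT2, 64.9 ± 30.2 in WT CT14, 20.4 ± 4.31 in KO CT2 and 25.5 ± 12.7 in KO CT14. In F the sum was 20 ± 4.41 TPM at CT2 and 59.2 ± 13 at CT14, and in LKO 22.2 ± 11.1 and 32.9 ± 12. Acot1 made up 61.2% ± 12 of the sum in WT CT2 and 39.5% ± 18.6 in KO CT14. Acot3 made up 17.4% ± 7.64 in F CT14 and 0.78% ± 0.714 in LKO CT2. Acot4 made up 44.1% ± 17.2 in KO CT14, with 62.6% in replicate 3, the library with the least Acot1 and the most interferon-stimulated transcripts.

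**Figure D3:**
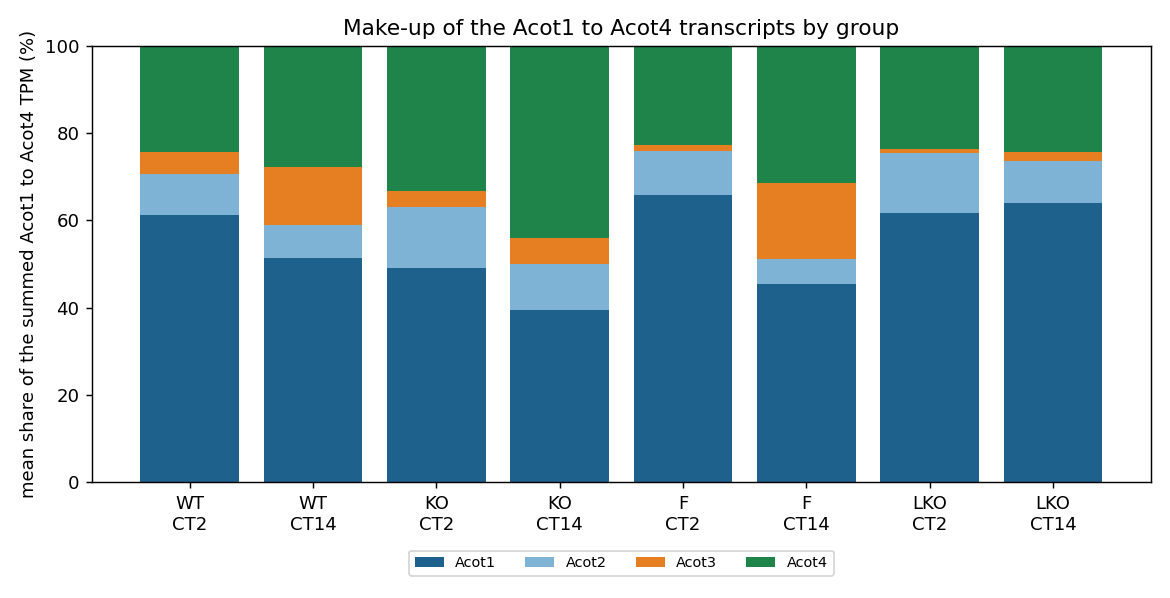
Mean share in percent (y axis, stacked from 0 to 100) of Acot1, Acot2, Acot3 and Acot4 in their summed TPM in each of 8 groups of 3 libraries (x axis). The Acot3 share is 13.5% in WT CT14 and 17.4% in F CT14 and at most 5.84% in the other groups.

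Counting only tests that the choice of Acnat2 left free, 2 of 5 members fell in KO over both times, Acot1 and Acot4. Over all 20514 genes 2.29% were called lower in that contrast. Acot4 alone fell in KO at CT14, where 2.15% of all genes were called lower, and no member was called in KO at CT2, where 0.517% of all genes were called in either direction. In LKO, Acot4 alone fell over both times and at CT14, against 1.43% and 0.912% of all genes, and no member was called at CT2, against 0.4%. None of the 5 was called for the difference of the KO and LKO effects, against 0.107% of all genes, nor between LKO and KO, against 2.15%. With so few members, these counts are read only beside the shares. At an unadjusted p under 0.05, 1666 of all genes differed between the KO and LKO effects.

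**Figure D4:**
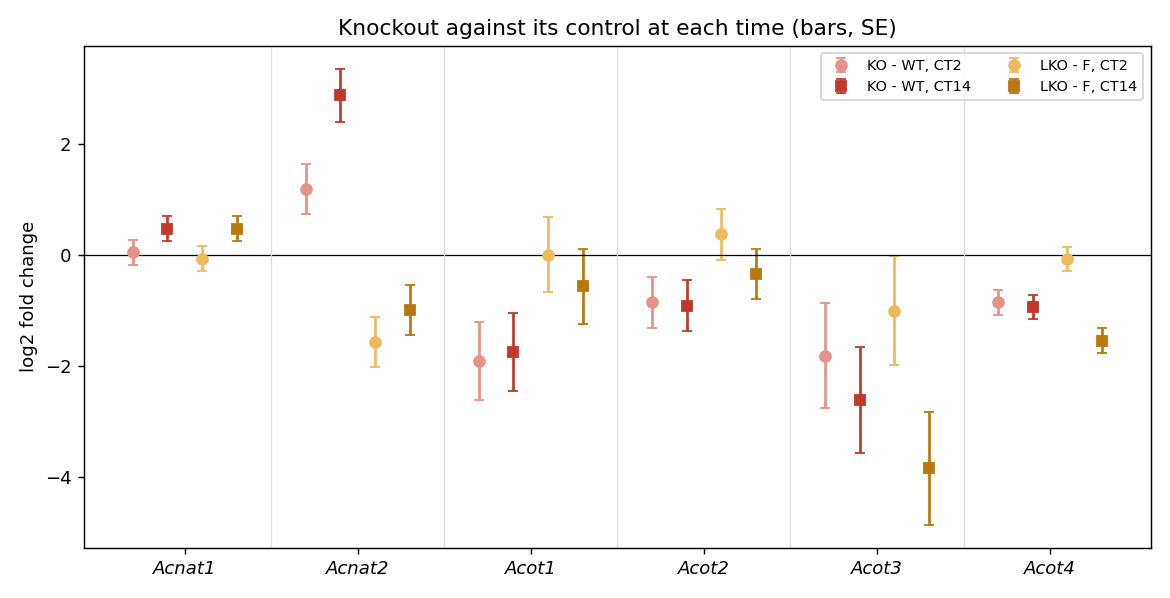
Log2 fold change of each member (x axis) in KO over WT and in LKO over F at CT2 and at CT14 (y axis; points, fitted edgeR values; bars, SE). Acnat2 lies above 0 in KO and below 0 in LKO at both times, while Acot4 is near 0 in LKO at CT2 (-0.07) and at -1.54 at CT14.

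Acot4 and Acot3 rose from CT2 to CT14 in F. Acot4 rose by 2.09 ± 0.23 on the log2 scale, a 4.26-fold difference (adjusted p = 1.66e-05, edgeR), and ranked 12 by p among the 20514 genes. Acot3 rose by 4.76 ± 1.07 (adjusted p = 0.0199). They were the 2 of 6 members called in F, where 1.33% of all genes were called higher at CT14. The Acot3 call was lost without F CT2 replicate 1, F CT2 replicate 2 or F CT14 replicate 2, at adjusted p of 0.066 to 0.0835. It was also lost without the F libraries high in pancreatic transcripts, replicate 3 at each time (5.68 ± 1.41, adjusted p = 0.0788). The Acot4 call held in each of these fits.

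In WT the time difference was 0.74 ± 0.22 for Acot4 (adjusted p = 0.082, and 0.037 with DESeq2) and 1.77 ± 0.93 for Acot3 (adjusted p = 0.48). In KO it was 0.66 ± 0.22 and 0.97 ± 0.93, both at an adjusted p of 1, and no gene of the whole table was called in KO (0%, with 753 genes at an unadjusted p under 0.05). In LKO it was 0.61 ± 0.22 for Acot4 (adjusted p = 0.215) and 1.93 ± 0.99 for Acot3 (adjusted p = 0.465). The CT2 and CT14 libraries of Acot4 did not overlap in KO or in LKO, as was the case for 7.63% and 20.7% of all genes. No member was called for time in WT or LKO, against 2.54% and 0.848% of all genes. The time effect of Acot4 was smaller in LKO than in F by a log2 difference of -1.48 ± 0.31. That difference had an adjusted p of 0.0737 in edgeR and 0.00348 in DESeq2, and edgeR called it without WT CT14 replicate 2 or WT CT2 replicate 1 (0.0432 and 0.0467). For Acot3 it was -2.83 ± 1.36 (adjusted p = 0.804).

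**Figure D5:**
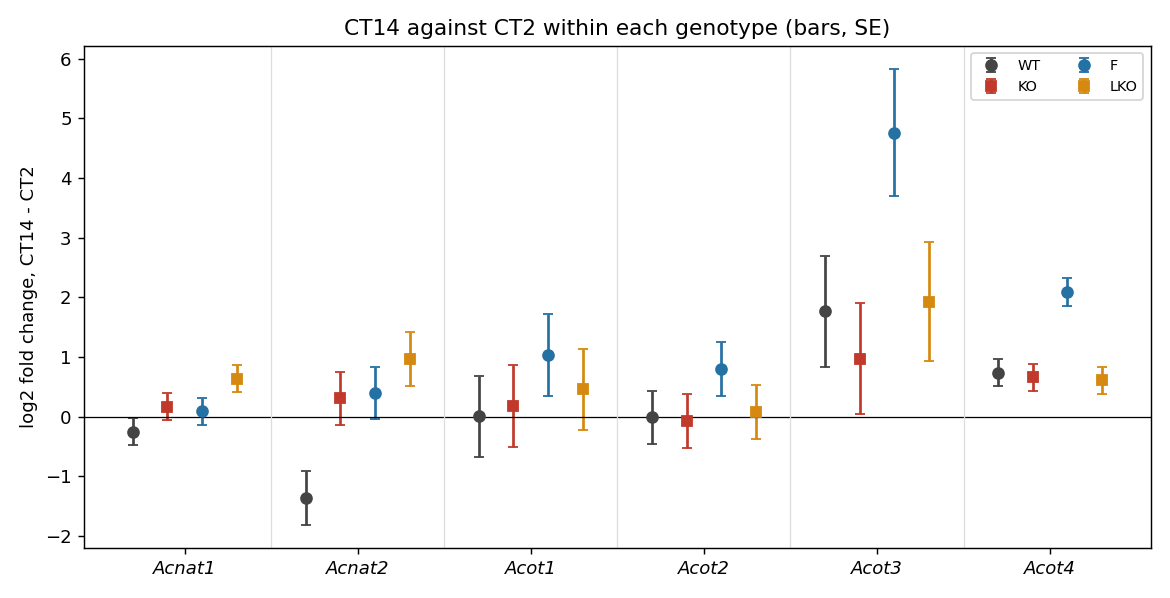
Log2 fold change from CT2 to CT14 of each member (x axis) within WT, KO, F and LKO (y axis; points, fitted edgeR values; bars, SE). Acot3 and Acot4 in F stand at 4.76 and 2.09, and Acnat2 stands at -1.36 in WT and 0.97 in LKO.

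The control lines differed. Acot4 was lower in F than in WT by -0.58 ± 0.15 (adjusted p = 0.0483), the single member of 5 called, against 0.912% of all genes called lower. That call was lost without any 1 of 20 of the 24 libraries, at adjusted p of 0.0506 to 0.136, and in 11 of 13 alternative settings. The 4 libraries without which it held were KO CT14 replicates 1 and 2, WT CT14 replicate 2 and WT CT2 replicate 1. Acot3 differed by -1.41 ± 0.66 (adjusted p = 0.349). The spermatid markers given above were also higher in all 6 F libraries than in all 6 WT libraries, and the pancreatic markers were high in 2 of the 6 F libraries.

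Among the genes most like each member over the 24 libraries, Acot3 and Acot4 were each other's closest, with a Pearson r of 0.92 on log2 CPM, of 12744 genes searched. The next for Acot4 were Slc16a5 (0.88) and Serpina6 (0.87), and for Acot3 Slc16a5 and Nr1i3 (0.85 each). Acot1 was most like Acaa1b and Hsd17b11 (0.9 each) and Retsat (0.87). Acot2 was most like Ehhadh (0.86), Acot1 (0.83) and Acadl (0.82). Acnat2 was most like ENSMUSG00000120473 (0.79), Gm11437 (0.77), Fgl1 and Ier5 (0.75 each) and Crym (0.74). Acnat1 was most like Ubqln1 (0.78), Dop1a and Clock (0.77 each). The libraries share genotype and time, so these values describe likeness over the 8 groups and the replicates together.

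Acot8, a peroxisomal thioesterase of another structural family, ran from 16.5 to 31.7 TPM over the libraries and passed in none of 15 contrasts (smallest adjusted p = 0.201). Acot5 was at most 0.974 TPM and Acot6 at most 2.23 TPM, and neither passed in any contrast (smallest adjusted p = 0.101 and 0.0652). Acot12, a cytosolic acetyl-CoA thioesterase of the liver, rose from 29 ± 2.36 TPM (SD, n = 3) at CT2 to 49.4 ± 1.92 TPM at CT14 in F, a log2 difference of 0.80 ± 0.16 (adjusted p = 0.00765). That call was lost with only the groups compared (0.112) and without the pancreatic F libraries (0.0514). It was lower in F than in WT by -0.47 ± 0.11 (adjusted p = 0.0278), which no longer passed without F CT14 replicate 2 or 3, F CT2 replicate 2, WT CT14 replicate 2 or WT CT2 replicate 3 (0.0558 to 0.0912). Of 11 other thioesterases tested, 1 was called over both times in each knockout, Them5. Over all genes 3.11% were called higher in KO and 1.7% in LKO. Them5 rose by 3.46 ± 0.68 in KO (adjusted p = 0.00329) and by 3.68 ± 0.70 in LKO (adjusted p = 0.00411). Its levels were low, with means of 0.0478 to 0.0944 CPM in the control groups and 0.529 to 1.24 CPM in the knockout groups.

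PPAR alpha targets and peroxisomal oxidation genes were read as lists beside the members, not all of which act in peroxisomes. Of 33 PPAR alpha targets tested, 11 fell and 1 rose in KO over both times, where 2.29% of all genes were called lower and 3.11% higher, with a median log2 difference of -0.5 against 0.01 over all genes. Aldh3a2, a fatty aldehyde dehydrogenase, fell by 1.63 ± 0.23 (adjusted p = 0.000125), Slc25a20, the carnitine carrier, by 0.74 ± 0.12 (adjusted p = 0.000664) and Acaa1b, a peroxisomal thiolase, by 1.65 ± 0.29 (adjusted p = 0.00117). Pdk4, the kinase that restrains pyruvate oxidation, rose by 1.96 ± 0.34 (adjusted p = 0.00138). In LKO 2 of the 33 rose and 1 fell, beside 1.7% of all genes called higher and 1.43% lower, with a median of 0.02 against -0.01 over all genes. Aldh3a2 fell by 1.3 ± 0.22 (adjusted p = 0.00163). Pdk4 rose by 1.3 ± 0.33 (adjusted p = 0.0371) and Cyp4a32, a fatty acid hydroxylase, by 0.96 ± 0.26 (adjusted p = 0.0484). The Pdk4 call was lost without any 1 of 8 libraries and the Cyp4a32 call without any 1 of 16, at adjusted p of up to 0.124 and 0.137. Cyp4a32 thus rose in LKO but was 1 of the 11 targets called lower in KO. Its difference between the KO and LKO effects did not pass the threshold. Between the control lines, Cyp4a32 was the single target of the 33 called, with the lower level in F, against 0.912% of all genes. For Acaa1b the LKO difference was -0.59 ± 0.28 (adjusted p = 0.387).

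Of 19 peroxisomal oxidation genes, 5 fell in KO and none rose, beside 2.29% and 3.11% of all genes, with a median of -0.34 against 0.01 over all genes. None was called in LKO over both times, where the median was 0 against -0.01. Decr2, a peroxisomal reductase, fell by 0.73 ± 0.10 (adjusted p = 7.1e-05), and Abcd3, a peroxisomal importer, by 0.68 ± 0.14 (adjusted p = 0.00441). Decr2 was also the 1 gene of the 19 called between F and WT, with the lower level in F, beside 0.912% of all genes. Whether the KO and LKO effects on these 2 lists differ was tested gene by gene. None of the 33 and none of the 19 passed for that difference, beside 0.107% of all genes. With so few genes called anywhere, this cannot show that the effects are alike. The median difference of the effects was -0.4 for the 33 and -0.17 for the 19, against 0.02 over all genes.

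Among 18 acyl-CoA synthetases, 3 fell and 1 rose in KO, beside 2.29% of all genes called lower and 3.11% higher. Acsm5 fell by 0.67 ± 0.11 (adjusted p = 0.000512), Slc27a2, a very long-chain synthetase, by 0.64 ± 0.12 (adjusted p = 0.00231) and Acsl1, a long-chain synthetase, by 0.61 ± 0.16 (adjusted p = 0.0265). Slc27a2 and Acsm5 were also lower in F, a control line, than in WT. With Acss3 they were the 3 of the 18 called there, all lower, beside 0.912% of all genes. Acss2, which makes acetyl-CoA from acetate, rose by 0.61 ± 0.16 in KO (adjusted p = 0.0307) and, as the single gene of the 18 called, by 0.76 ± 0.16 in LKO (adjusted p = 0.0105). The LKO means were 583 CPM against 190 CPM in F at CT2 (1.62 ± 0.24, adjusted p = 0.00133, and 0.138 with only the groups compared) and 187 against 200 CPM at CT14 (-0.10 ± 0.23, adjusted p = 1). The LKO call over both times was lost without the pancreatic F libraries (0.0518) and without the 3 libraries low in Ddx3y (0.0504). The KO calls of Acsl1 and Acss2 were each lost without any 1 of 8 libraries, at adjusted p of up to 0.0729 and 0.0951. None of the 13 genes of CoA synthesis and turnover passed in either knockout.

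Genes that supply taurine or conjugate amino acids stand next to the Acnat reaction. Of 7 taurine supply genes, Cdo1, the cysteine dioxygenase, rose by 0.77 ± 0.17 in KO (adjusted p = 0.00717), beside 3.11% of all genes called higher. Fmo1, which can oxidise hypotaurine to taurine, fell by 0.84 ± 0.16 in KO (adjusted p = 0.00252) and by 0.75 ± 0.16 in LKO (adjusted p = 0.00936), beside 2.29% and 1.43% of all genes. The Fmo1 means in LKO and F were 89.5 and 87.2 CPM at CT2 (0.04 ± 0.22, adjusted p = 1) and 63.6 and 185 CPM at CT14 (-1.54 ± 0.23, adjusted p = 0.000554). The LKO call over both times was lost with limma on log2 TPM (0.0896) and without the pancreatic F libraries (0.0516). Fmo1 was also the 1 gene of the 7 called between F and WT, with the lower level in F, beside 0.912% of all genes. Of 10 amino acid conjugation genes, Keg1 fell by 1.12 ± 0.29 in KO (adjusted p = 0.0278), beside 2.29% of all genes called lower. That call was lost without any 1 of 8 libraries (0.0504 to 0.0743). Gm4952, a glycine acyltransferase-like gene, rose by 0.84 ± 0.17 in LKO (adjusted p = 0.00695), beside 1.7% of all genes called higher. Its CPM means at CT2 and CT14 were 68.9 and 44.6 in F, 96.5 and 102 in LKO, 166 and 63.7 in WT. Gm4952 was the 1 gene of the 10 called between F and WT, with the lower level in F, beside 0.912% of all genes. No other gene of these 2 lists was called over both times in either knockout.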

How the data were processed

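Polyadenylated RNA of 24 mouse liver libraries was prepared with a stranded kit, per the labels' protocols. The submitters' processing notes name StringTie 1.3.1, HISAT2 2.2.1, fastp 0.23.2 and the build GRCm39. The strand setting and annotation of the counting step were not given in the sources used here. Estimated counts per gene were deposited by the authors, not normalized, with a table in TPM, which corrects for transcript length. The authors also deposited log2 fold changes, with p-values and adjusted p-values, from their own DESeq2 comparisons. Those deposited tables also hold a mean signal per gene and scores (the test statistic and the standard error), of which only the standard errors were copied. The 6 members and all gene lists were chosen with earlier results of these data known.

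Estimated counts were rounded and fitted with edgeR 4.0.16 in R 4.3.3 (TMM, filterByExpr with minimum count 10 and minimum total 15, quasi-likelihood with robust estimation) as 8 group means over all 24 libraries. Each contrast had a quasi-likelihood F-test, with p-values adjusted over all 20514 genes by Benjamini-Hochberg and calls under 0.05. KO and LKO effects are means over both times unless a time is given. Acnat2 has no test in the contrasts of levels between genotypes, which chose it. It was tested for time and for the differences of the time effect, which are built from the same levels. CPM are counts normalized to TMM-adjusted library sizes. Named are the 6 members, up to 4 called genes with the smallest adjusted p per list and contrast, Baat, Acot5, Acot6, Acot8 and Acot12, and the genes closest to each member by Pearson r on log2 CPM among genes with a mean of at least 1 CPM. Alternatives were RLE size factors, DESeq2 1.42.0, limma 3.58.1 on log2(TPM + 0.1), other filters, counts divided by 4, a prior count of 2, a replicate block, only the groups compared, and leaving libraries out. Replicate numbers are shared between groups in the labels, without a stated pairing. The correlation of deviations between same-numbered libraries exceeded 0.1 in 9 of 24 pairs (range -0.442 to 0.68 over 5000 genes), and in all 3 pairs only between F and LKO at CT2. Promoter windows and names come from RefSeq on GRCm38.p6, and the transcripts compared for identity from a GRCm38 annotation.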

Additional observations from a re-analysis of the deposited data

How the results depend on the processing

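The Acnat2 differences between genotypes kept their sign in all settings tried and moved by less than 1 SE, except that limma on log2 TPM gave -0.92 for LKO over F and -0.44 at CT14, and that CT14 value was -1.44 without F CT14 replicate 1; its KO difference ranged from 1.87 to 2.2 with 1 library left out. The Acot4 calls in KO and LKO over both times, in LKO at CT14 and for time in F held in all settings and with any 1 library left out. Uncalled values near 0 changed sign: Acot2 in LKO (-0.08 without the 3 libraries low in Ddx3y, and -0.15 to 0.16 with 1 library left out) and Acot4 in LKO at CT2 (0.06 with limma on log2 TPM, 0.02 without the 2 F libraries with pancreatic transcripts, and -0.22 to 0.06 with 1 library left out). So did Acss2 in LKO at CT14 (0.19 with limma on log2 TPM, and -0.3 to 0.2 with 1 library left out) and Fmo1 in LKO at CT2 (-0.06 to 0.24 with 1 library left out).

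Counts of members called moved as follows. In KO over both times the 2 calls became 1 with no filter, with only the groups compared, with the replicate block, without the 2 pancreatic F libraries, without the 3 libraries low in Ddx3y and without the KO library high in interferon-stimulated genes, and ran from 1 to 3 with 1 library left out. KO at CT2 had 1 call with DESeq2. KO at CT14 had 0 with limma and with only the groups compared (0 to 1 with 1 library left out). LKO over both times had 2 with DESeq2, limma or counts divided by 4 (1 to 2). LKO at CT14 had 2 with those settings, a minimum count of 50, only the groups compared or without the 3 libraries low in Ddx3y (1 to 2). F against WT had 0 in 11 of 13 settings, with DESeq2 and the prior count of 2 as the exceptions (0 to 1). Time had 2 in WT with DESeq2 (0 to 1) and 1 in F with no filter, only the groups compared or without the pancreatic F libraries (1 to 2). The difference of the time effect between LKO and F had 1 with DESeq2 (0 to 1). The other counts stayed at 0.

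The replicate block, a hint from the numbers and not from the design, ended 2 calls of members, Acot1 in KO (-1.73, adjusted p = 0.0826) and Acot4 between F and WT (-0.58, adjusted p = 0.0709). Causes of these changes were not tested.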
